A study of Mus musculus with 2 samples.

Results

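A set of genes that neurons switch on with activity, Npas4, Arc, Bdnf, Homer1, Nptx2 and Nrn1, were followed on 2 one-colour (Cy3) mouse arrays of RNA from cells labelled GT1-7. The members were chosen by name: every non-control spot carrying 1 of these 6 gene names was taken, which gave 12 probes, each printed once per array, of 55681 non-control probes in all. GT1-7 cells are known as immortalised neurons of mouse hypothalamic origin that release gonadotropin-releasing hormone (GnRH). On these arrays Gnrh1, the gene of that hormone, was not well above background, as the markers below show. The vehicle array carries cells kept 30 min in DMSO and the GnRH array cells kept 30 min in 50 nM GnRH, both in the same line with no other agent or allele named. The free-text description of both samples names bradykinin and the A549 line instead, and the groups here follow the treatment labels. With 1 array per group no test was possible, and every difference below compares these 2 arrays and not the conditions.

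In neurons, calcium entry and receptor signalling act through kinases on transcription factors already present, such as CREB and SRF, so that a first wave of genes is transcribed with no new protein needed. Npas4 and Arc belong to that first wave. Npas4 encodes a transcription factor that works as a dimer and drives later genes, Bdnf among them, and Arc encodes a protein that helps to remove AMPA receptors from synapses. Bdnf (a secreted neurotrophin), the short form of Homer1 (a scaffold protein that loosens the link between metabotropic glutamate receptors and their partners), Nptx2 (a secreted pentraxin that clusters AMPA receptors) and Nrn1 (neuritin, a membrane-anchored protein that promotes neurite growth) are known as effector genes of the same programme.

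The GnRH array carried far more signal than the vehicle array for Npas4 and Arc, slightly more for Bdnf, and about the same for Homer1 and Nrn1, while Nptx2 was not measurable. Signals are the scanner software's processed intensities. Differences are given on the log2 scale as GnRH minus vehicle, after each array was scaled to the 75th percentile of its probes, with the scanner software's own error. That error is technical and mostly follows the software's multiplicative setting of 0.1. Of the 6 genes, 5 had a probe well above background on both arrays. A lower signal from bulk RNA can mean fewer cells making a transcript or less of it per cell, and these cannot be told apart. At a threshold of 2-fold, 2 of these 5 were higher in the GnRH array, against 0.311% of the 21219 measured genes, and 0 were lower, against 0.132%.

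A pair of probe sequences is shown because Homer1 makes a short and a long form that differ at their 3′ ends, and the array design assigns its 5 Homer1 probes to transcript variant S (3 probes) or L (2 probes). The following probes, written 5′ to 3′ from the scanner files, are the variant S probe whose letters run to a stop codon at the end of an open frame, in capitals, and a variant L probe lying further along the gene.
Homer1 variant S probe: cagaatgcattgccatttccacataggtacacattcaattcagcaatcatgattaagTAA
Homer1 variant L probe: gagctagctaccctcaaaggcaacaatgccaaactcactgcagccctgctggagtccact
The S probe lies on chromosome 13 at 94126009 to 94126068 and the L probe at 94157507 to 94157566, both on the plus strand of build mm9 as the files give it. Exons and untranslated regions are not assigned to any probe, since no annotation of that build was used.

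Promoter sequence is shown for the genes with a RefSeq window (GRCm38.p6; 250 bases before to 50 after each annotated start), because windows of Npas4, Homer1 and Bdnf carry the core of the cAMP response element (CRE), the site CREB binds. Of the 6 genes, 3 had windows: Npas4 had 1, Homer1 had 2 and Bdnf had 7, numbered here in genome order. Arc, Nptx2 and Nrn1 were not matched. The 250 bases before the start are printed 5′ to 3′ in the direction of the gene, with each TGACG, or its reverse complement CGTCA, in capitals.
Npas4, chr19:4989972-4990221, minus strand: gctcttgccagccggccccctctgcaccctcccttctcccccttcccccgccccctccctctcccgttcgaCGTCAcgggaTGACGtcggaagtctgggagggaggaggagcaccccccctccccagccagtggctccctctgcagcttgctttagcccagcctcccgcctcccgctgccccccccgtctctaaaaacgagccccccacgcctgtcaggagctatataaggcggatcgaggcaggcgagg
Homer1 window 1, chr13:93303507-93303756, plus strand: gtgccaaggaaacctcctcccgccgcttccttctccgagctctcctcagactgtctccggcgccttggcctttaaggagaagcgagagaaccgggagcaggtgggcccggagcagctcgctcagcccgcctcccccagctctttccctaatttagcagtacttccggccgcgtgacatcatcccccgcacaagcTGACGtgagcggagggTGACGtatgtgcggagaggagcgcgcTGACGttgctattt
Bdnf window 3, chr2:109692186-109692435, plus strand: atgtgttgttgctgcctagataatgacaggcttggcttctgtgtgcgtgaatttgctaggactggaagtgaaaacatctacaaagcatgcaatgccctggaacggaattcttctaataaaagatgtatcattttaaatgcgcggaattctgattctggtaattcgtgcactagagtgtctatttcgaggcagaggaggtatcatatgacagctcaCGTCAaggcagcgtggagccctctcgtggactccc
On both strands of the windows, TGACG matched 2 times in Npas4 (starting 179 and 169 bases before the annotated start), 3 times in Homer1 window 1 (56, 40 and 14 bases before it) and 1 time in Bdnf window 3 (35 bases before it). Some match to TGACG was present in 20.8% of all 32851 windows. TCGTG, the core bound by NPAS4 dimers, matched in Bdnf windows 1, 2 and 3 and in none of the Npas4 or Homer1 windows, against 16.0% of all windows. The AP-1 site TGANTCA matched once, in Bdnf window 2 (7.81% of all windows). The full CRE TGACGTCA, of which TGACG is a part (1.79%), the EGR site GCGGGGGCG (2.91%) and the CArG box that SRF binds (1.63%) matched in none of the 10 windows. A match describes letters only.

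Npas4 stood at a processed signal of 977 ± 97.8 (scanner error) with vehicle and 50852 ± 5090 with GnRH. The GnRH signal was the higher one by 55.6-fold after scaling, a log2 difference of 5.80 ± 0.20. Its only probe lies on the minus strand of chromosome 19 at 4984356 to 4984415 (mm9). In the reported processing, genes too dim on either array to measure, such as Egr2 below, have no rank. Only 3 of the other measured genes differed upward by as much, which put Npas4 at rank 4 of 21219. Its rank was 2 with normexp, a model-based background correction, and also without background correction, and 23 when dim probes were kept. Among 1740 genes with a mean level within 0.5 log2 units of its own, 0 were as high, and those genes had a median difference of -0.02. That mean is taken over both arrays and so holds the GnRH value. Genes raised from a lower vehicle signal can fall outside such a window, here and for the genes below, so it does not compare genes of like vehicle level.

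Arc read 327 ± 32.9 with vehicle and 2385 ± 238 with GnRH. The difference was 7.79-fold, or 2.96 ± 0.20 on the log2 scale, and 12 other measured genes were as high or higher. That put Arc at rank 13, against 8 with normexp and without background correction, 7 without spots in areas where the arrays differed unevenly and 63 when dim probes were kept. Arc has 1 probe, on the minus strand of chromosome 15 at 74499592 to 74499651 (mm9). Of 2090 genes of similar level, 2 were as high (0.0957%). Without background correction the Arc difference was 2.73, the only setting that moved it by more than the scanner error.

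Bdnf read 240 ± 24.3 with vehicle and 342 ± 34.3 with GnRH, a log2 difference of 0.60 ± 0.21, or 1.52-fold. The GnRH signal was the higher, short of 2-fold. At 1.5-fold, 3 of the 5 measured members were higher in the GnRH array, beside 1.19% of all measured genes, and 0 members were lower (0.881%). Bdnf passed that line narrowly and was under it with median scaling (0.58), normexp background correction (0.52) and no background correction (0.49). Of 1926 genes of similar level, 13 were as high as Bdnf (0.675%), and the robust SD of their differences was 0.13. The single probe, on the plus strand of chromosome 2 at 109566961 to 109567020 (mm9), is assigned by the array design to transcript variant 1. Whether it also matches other Bdnf transcripts was not tested, so the promoters from which Bdnf is transcribed were not told apart.

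**Figure D1:**
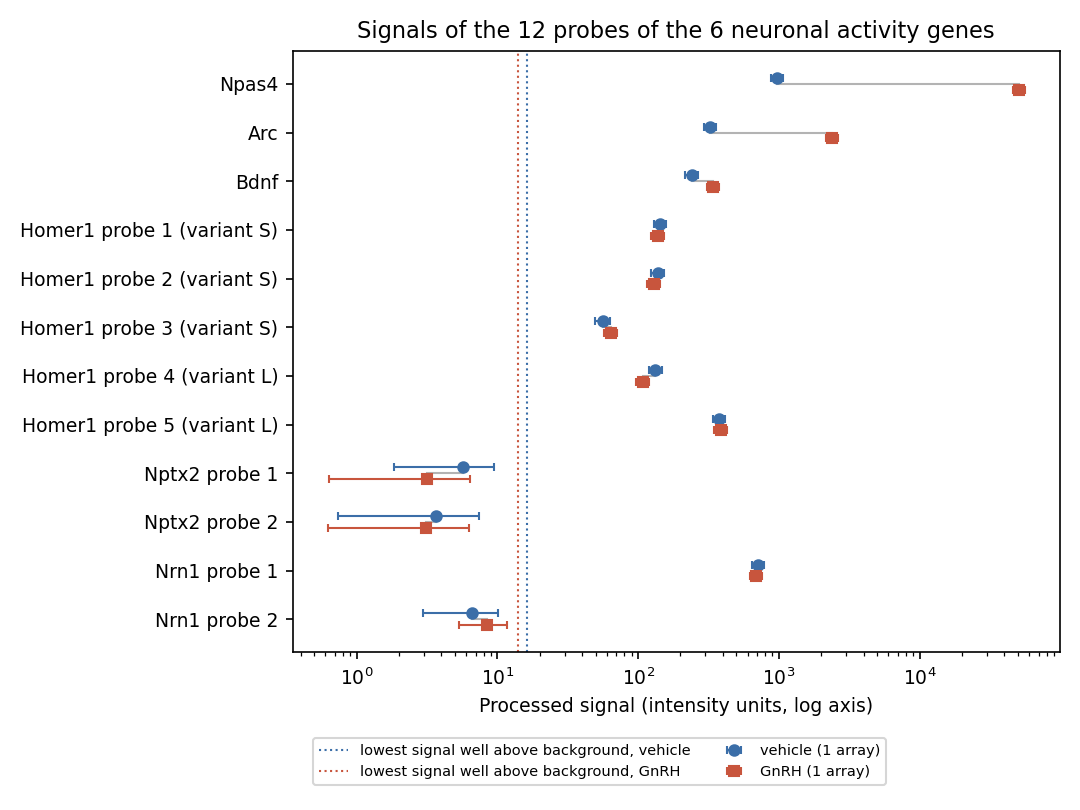
Processed signal of each of the 12 probes on the vehicle array (circles) and the GnRH array (squares), on a log axis, with the scanner error as bars (lower bars cut short where the error reaches the signal) and dotted lines at the lowest signal well above background on each array. Npas4 and Arc are far apart between the arrays, Bdnf is a little apart, the Homer1 probes and the first Nrn1 probe nearly coincide, and both Nptx2 probes and the second Nrn1 probe lie left of the dotted lines.

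Homer1 was read by 5 probes, all well above background on both arrays, and none was 2-fold apart. Counted along the gene, the first 3 probes are those assigned to variant S. Whether these also match the long form was not tested. The first probe read 144 with vehicle and 138 with GnRH, a difference of 0.03 ± 0.21, and the second read 138 and 129, a difference of 0.00 ± 0.21. The third probe, which runs to the stop codon shown above, was the dimmest, at 56.5 and 64.2, and had the highest difference of the 5, 0.28 ± 0.23.

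The variant L probes lay on either side of 0. The fourth probe read 133 with vehicle and 108 with GnRH (-0.20 ± 0.21), and the fifth, the brightest, read 377 and 386 (0.13 ± 0.21). The 5 probes had a mean difference of 0.05 with an SD of 0.18 between probes. The third probe exceeded the mean of the other 4 by 0.29 ± 0.26 (combined scanner error), and those 4 had an SD of 0.14. That gap is close to its own error, so a separate response of the short Homer1 end was not resolved on these arrays.

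**Figure D2:**
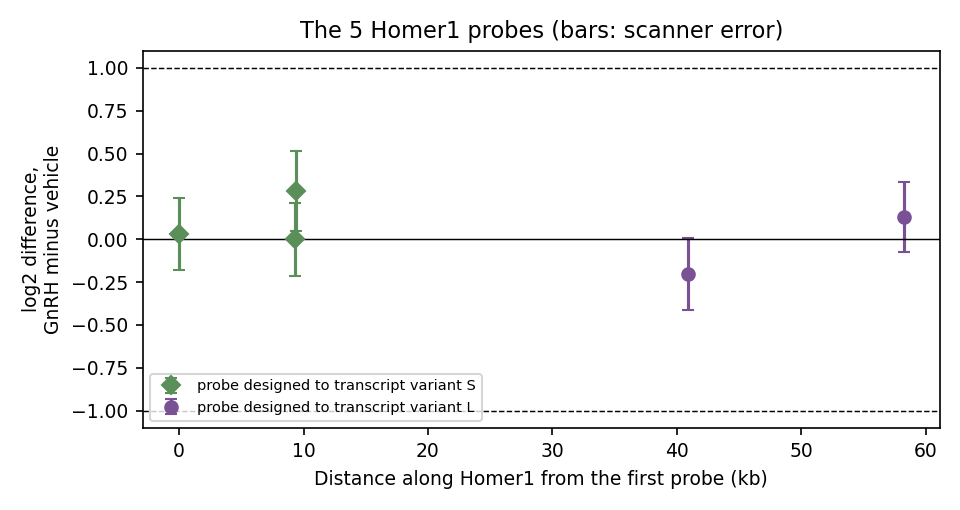
log2 difference (GnRH minus vehicle) of the 5 Homer1 probes against their distance in kb along the gene from the first probe, with the scanner error as bars, diamonds for variant S probes and circles for variant L probes. All 5 lie between -0.20 and 0.28, inside the dashed lines at 2-fold.

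Nrn1 was bright on 1 of its 2 probes, with signals of 716 ± 71.7 with vehicle and 688 ± 68.9 with GnRH. After scaling the difference was 0.04 ± 0.20, and 33.8% of the other measured genes were as high or higher. That probe lies on the minus strand of chromosome 13 at 36817941 to 36818000 (mm9). The other Nrn1 probe, at 36822427 to 36822486, is designed to an Ensembl transcript and stayed below the detection mark on both arrays (6.58 and 8.48).

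Nptx2 was not well above background on either of its 2 probes, which lie on chromosome 5 at 145317727 to 145317786 and 145317905 to 145317964 (plus strand, mm9). Their signals were 3.68 and 5.67 with vehicle and 3.12 and 3.19 with GnRH, under the lowest signals well above background of 16.3 and 14.06. No fold is given, since both arrays give only an upper bound.

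In order of their differences the measured genes were Npas4, Arc, Bdnf, Homer1 and Nrn1. Homer1 enters this order by its brightest probe, which is assigned to variant L (0.13), while the variant S probe at the stop codon stood at 0.28. The first 3 steps of that order were larger than the scanner error, while Homer1 and Nrn1 were closer to each other than that error. Replicate spots give a second view of the technical spread. In 65 probes printed 10 times with mean levels from -0.99 to 1.12, the range that holds Arc, Bdnf, Nrn1 and the brightest Homer1 probe, single-spot differences had an SD of 0.07. The SD was 0.19 in the 66 dimmest such probes, whose levels hold the other 4 Homer1 probes. None of the 12 spots was marked as an outlier or saturated, and the brightness of pixels within each varied by 11.2% to 22.2% (CV). Neighbouring spots differed between the arrays in 3 small areas, and 0 of the 12 spots lay in them, with median differences of the surrounding spots from -0.14 to 0.05.

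**Figure D3:**
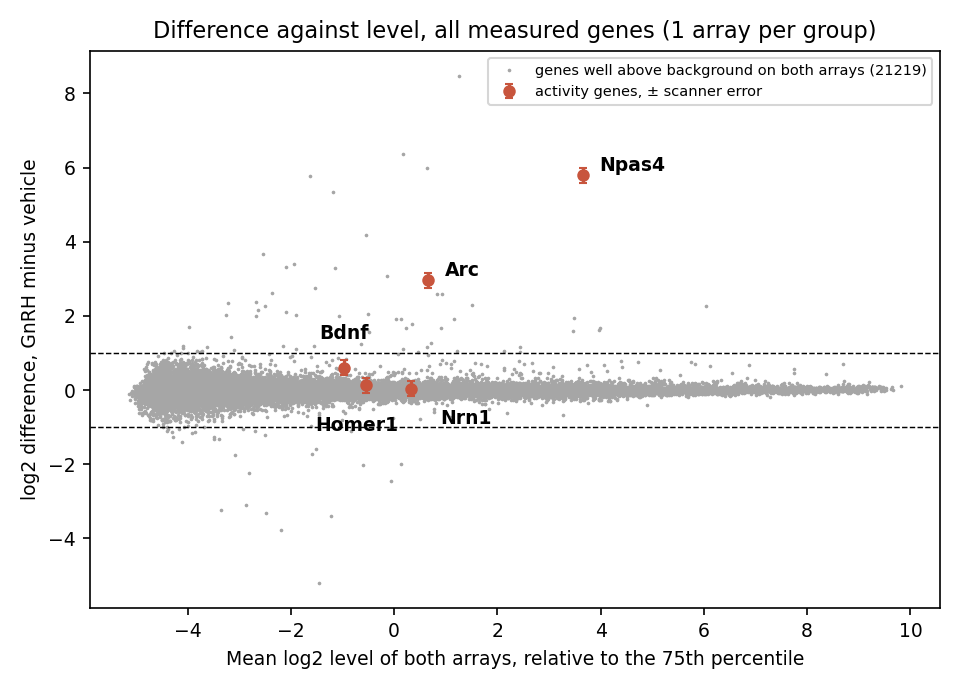
log2 difference (GnRH minus vehicle) against mean log2 level for the 21219 genes well above background on both arrays (grey) and the 5 measured activity genes (red, ± scanner error), with dashed lines at 2-fold. Npas4 and Arc stand clear of the grey band, Bdnf lies at its upper edge, and Homer1 and Nrn1 lie within it.

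By size of difference, the genes closest to Npas4 over these 2 arrays were Foxr1 (5.76, distance 0.03), Fos (5.98, distance 0.19) and Fosb (6.37, distance 0.57). The Foxr1 spot lay in 1 of the uneven areas of the array. With normexp, Fosb (5.47) and Fos (5.30) lay below Npas4 (5.70) and Fosb was the closer, and without background correction Fosb was at 5.35, Fos at 5.26 and Npas4 at 5.68. Those closest to Arc were Ier2 (3.09, distance 0.13), Dusp5 (2.74, distance 0.22) and Junb (3.31, distance 0.35), all outside the areas. With normexp, Ier2 (2.65) and Junb (2.32) lay below Arc (2.77). The measure is the distance between log2 differences of 2 arrays, so it ranks sizes only.

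Other genes of the activity programme were divided for this report into early regulators and later effectors, with the 6 genes left out of each list. The split is a working one, and the timing of the listed genes was not tested. Of 22 early regulators, 18 were measured on both arrays, with a median log2 difference of 2.10 beside -0.01 over all measured genes. Of these, 12 were higher by 2-fold or more, beside 0.311% of all measured genes. All 18 were above 0, beside 47.5%. Dusp1 (1.79), among those past 2-fold, had its spot in an uneven area. Egr1 (8.47 ± 0.22), Fosb, Fos, Junb and Ier2 had the largest differences. Without background correction these were lower, at 7.44 for Egr1, 5.35 for Fosb, 5.26 for Fos, 2.63 for Ier2 and 2.19 for Junb. Egr2, too dim with vehicle to measure, was at least 143-fold higher. Such a bound divides the bright signal by the detection floor of the dim array. Of the measured early genes, 4 stayed within 1.5-fold, beside 97.9% of all measured genes, with Fbxo33 lowest at 0.10. Egr3, Egr4 and Nr4a3 were not well above background on either array.

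The later effectors, with which Bdnf, Homer1, Nptx2 and Nrn1 are grouped here as effector genes, had a lower median, with values that overlapped those of the early list. Of 29 listed, 22 were measured, with a median of 0.27. Of these, 19 were above 0, beside 47.5% of all measured genes, and 1 was at least 2-fold higher, beside 0.311%. The GTPase gene Gem led (1.15 ± 0.20; 0.72 on its other measured probe), followed by Trib1, a pseudokinase gene (0.71 ± 0.20), Rasd1, a dexamethasone-inducible Ras-like gene (0.70 ± 0.20), the polo-like kinase gene Plk2 (0.59 ± 0.21) and Tiparp (0.52 ± 0.20). Bdnf at 0.60 sat among these. Among other genes of this list, Vgf was at 0.28 ± 0.20, Scg2 at 0.05 ± 0.20 and Cartpt at -0.04 ± 0.21, and Crh, Penk and Tac1 were not well above background on either array. Rrad passed the background mark only with GnRH and was higher by at least 5.24-fold, with its spot in an uneven area.

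Relatives and partners of the 6 genes were close to 0. Of 12 relatives, 7 were measured, with a median of 0.00. The scaffold genes Homer2 (0.04) and Homer3 (0.08, and -0.24 on its other measured probe) stayed within 1.5-fold. So did the neuritin relative Nrn1l (-0.06), Cbln1 (-0.10) and 97.9% of all measured genes. Npas1 was the exception at 1.09 ± 0.25, the only measured relative at least 2-fold higher, beside 0.311% of all measured genes. Its spot lay in an uneven area, and its values were 0.52 with normexp and 0.56 without background correction. Nptx1, Npas2, Npas3 and Ntf3 were not well above background on either array. The dimer partner genes of NPAS4 that were measured, Arnt (0.02) and Arntl (-0.01), did not differ by more than their error, and Arnt2 was too dim on both arrays.

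Genes for receptors and processing of BDNF had 12 of 14 measured and a median of -0.03. Ntrk2, which encodes the BDNF receptor TrkB, read 1028 with vehicle and 1031 with GnRH (0.10 ± 0.20), so receptor transcript was present on both. Over all measured genes, 0.132% were at least 2-fold lower. The only gene of this list 2-fold apart was Ntrk3, lower at -1.72 ± 0.21 on its brightest probe. That spot lay in an uneven area, and the other 3 measured Ntrk3 probes ran from -0.12 to 0.12. Mmp9 (-0.21 ± 0.09, but -0.02 both with normexp and without background correction), Pcsk2 (-0.12) and Plat (-0.10) followed.

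The synaptic partners of ARC, HOMER1 and the pentraxins had 24 of 27 measured, with a median of -0.01. All 24 lay within 1.5-fold, as did 97.9% of all measured genes. By brightest probe, the extremes were the glutamate receptor genes Grin2b (0.48 ± 0.33) and Gria2 (-0.41 ± 0.32), both dim. With normexp they were at 0.26 and -0.10, and without background correction at 0.20 and -0.06. Next came Shank2 (0.33 ± 0.23, and -0.10 on its other probe), Dnm1 (-0.25 ± 0.20) and Trpc1 (0.21 ± 0.28). Shank1 was at -0.13 on its brightest probe, and its other measured probes were at -0.57 and 0.34. Grm5, which encodes a metabotropic glutamate receptor that binds HOMER1, was at -0.09 ± 0.22 (0.17 on its other measured probe).

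Transcription factors and cofactors that act upstream of the 6 genes were mostly level, with 29 of 30 measured and a median of 0.02. Srf, which encodes serum response factor, was the only one at least 2-fold higher (1.07 ± 0.20, and 1.57 on its other probe), beside 0.311% of all measured genes. It was followed by Rest, encoding a repressor of neuronal genes (0.64 ± 0.23, and 0.38 without background correction), Atf4 (0.46 ± 0.20), the CREB-family gene Crem (0.34 ± 0.21) and Mef2a (0.20 ± 0.20). Creb1 itself was at -0.03.

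**Figure D4:**
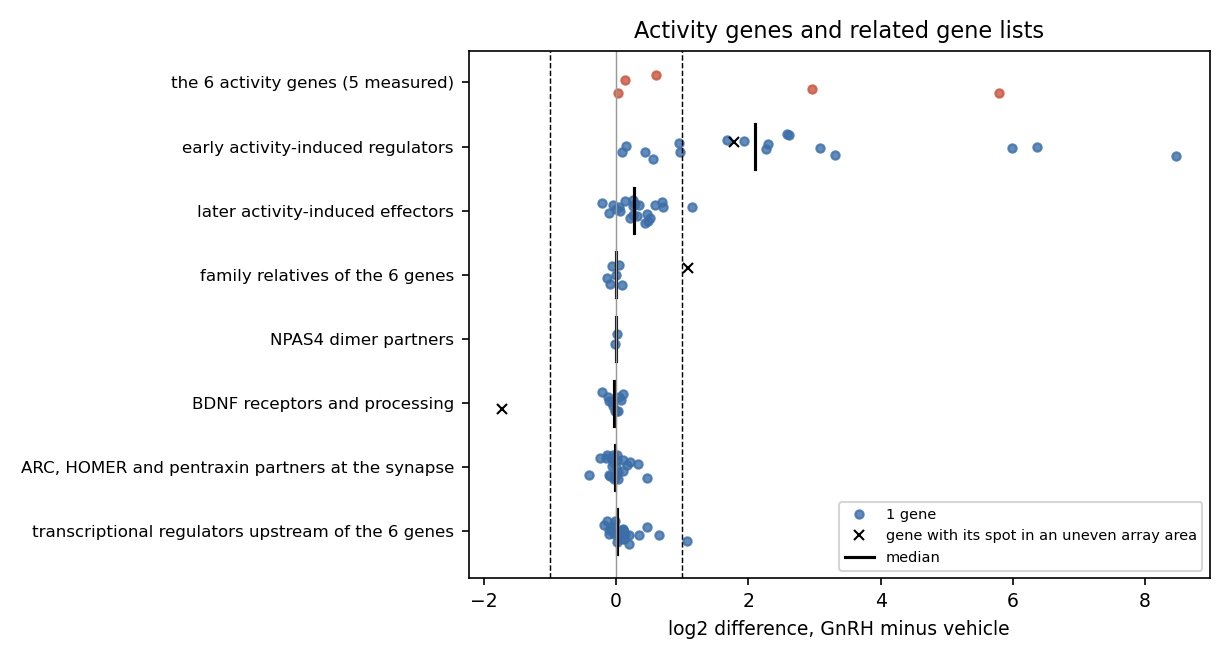
log2 difference (GnRH minus vehicle) of each measured gene for the 5 measured activity genes (red) and 7 related lists (blue), with list medians as black bars, crosses for genes with a spot in an uneven array area and dashed lines at 2-fold. The early regulators spread far to the right with a median of 2.10, the later effectors have a median of 0.27, and the other lists centre on 0.

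Markers were checked because the programme is best known in neurons. Of 12 pan-neuronal markers, 10 were well above background on both arrays, among them Tubb3, Map2, Snap25 and Syn1, with a median difference of -0.03. Stmn2 was below that level on both and Rbfox3 reached it on the GnRH array only. Among all genes of the array, 21219 of 35019 were measured on both arrays. Passing that mark does not by itself tell cell types apart, since 7 of 9 oligodendrocyte markers passed as well. Of 9 genes of the GnRH neuron list, 5 were measured, and Gnrh1, Six6, Meis1 and Nhlh2 did not pass on either array. Apart from Gnrhr, vehicle signals of the measured ones were 2457 for Isl1, 81.9 for Kiss1r, 80.2 for Otx2 and 21.7 for Dlx5. Of 10 gonadotrope and pituitary genes, 4 passed on both arrays. Their vehicle signals were 80508 for Cga, 48204 for Pitx1, 33412 for Nr5a1 and 71.5 for Lhb. Fshb did not pass on either, nor did Prl, Pomc, Tshb and Pou1f1 of other pituitary lineages, and Gh passed on the GnRH array only. Gnrhr, which encodes the GnRH receptor and stands in the GnRH neuron list, read 14861 with vehicle. With Gnrh1 not measurable and Cga, Pitx1, Nr5a1 and Gnrhr bright, these signals do not bear out the GnRH-releasing neurons that the label stands for. What the cells are was not tested, and their label is used here as a name only. Markers of astrocytes (3 of 8), oligodendrocytes (7 of 9), microglia and macrophages (5 of 9) and fibroblasts and endothelium (4 of 11) had measured members with medians from -0.04 to 0.05, and none was 2-fold apart.

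The 5 measured activity genes kept their order of size across scaling, background correction, dim-probe filter and spot choices. They also kept it in the authors' deposited table, which holds values of the same 2 arrays and is no independent source. Only the choice of the Homer1 probe with the smallest difference (0.00) put Homer1 below Nrn1. In the authors' deposited table Npas4 read 948 and 52341, Arc 317 and 2478, and Bdnf 233 and 353 on the vehicle and GnRH arrays.

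**Figure D5:**
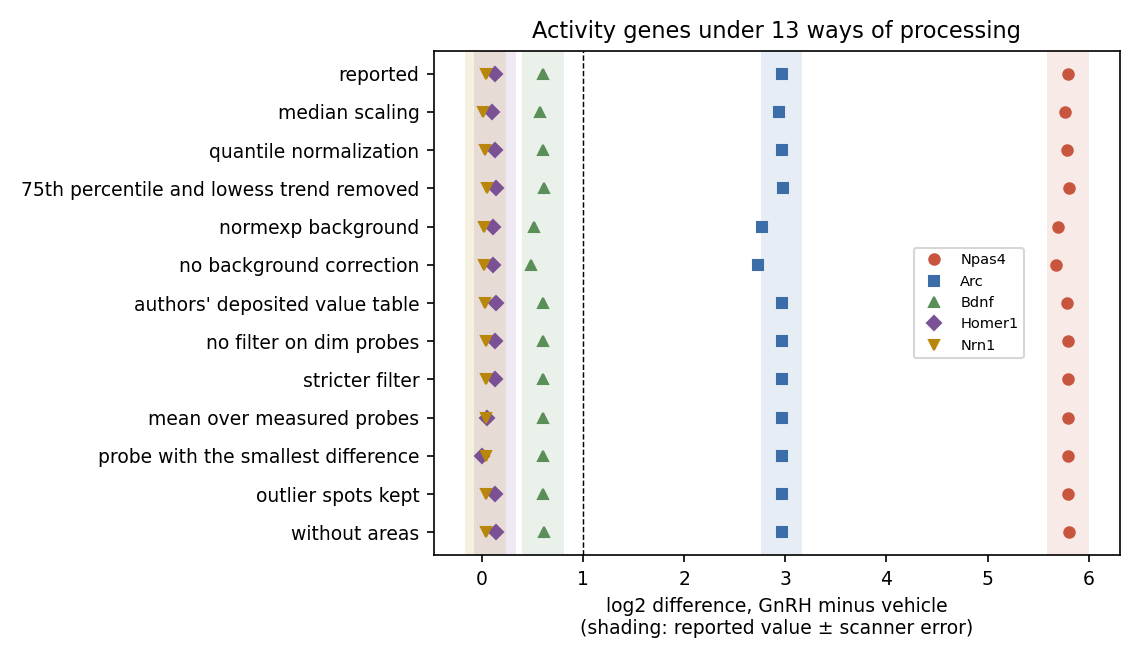
log2 difference (GnRH minus vehicle) of the 5 measured activity genes under the reported processing and 12 alternatives, with shading for the reported value ± scanner error and a dashed line at 2-fold. Npas4 stays between 5.68 and 5.81, Arc between 2.73 and 2.97, Bdnf between 0.49 and 0.61, and Homer1 and Nrn1 stay near 0.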

How the data were processed

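RNA of 2 samples (1 per group) was measured on 1-colour Agilent arrays with probes of 60 bases. Per the file headers, each spot's deposited intensity had its background removed and its spatial trend corrected by Feature Extraction 10.7.1.1, whereas 9.5.1.1 is the version in the submitters' processing notes. The value table deposited by the authors is on a linear intensity scale with the same median of 28.44 on each array. How they normalized it is not given in the sources used here. Its differences were nearly those of quantile normalization, which gives both arrays the same distribution (Npas4 5.79 and Arc 2.97 in each). Outlier spots were left out, log2 signals of a probe's spots were averaged, and each array's 75th percentile (578 for vehicle, 541 for GnRH) was subtracted. A gene's value is its brightest probe well above background on both arrays, and 27229 of 55681 probes were named through RefSeq accessions (GRCm38.p6). Uneven areas are connected runs of at least 4 spots whose neighbours within 2 rows and columns had a median difference of 0.3 or more in size, widened by 2 spots (586 spots in all). Normexp used limma 3.58.1 in R 4.3.3, and other steps used Python 3.11.15. The steps were tested on simulated data. The 6 genes, the lists, the motifs and the alternatives were chosen with earlier results of these data known. Named genes are the 6, up to 5 of each list with the largest differences, bounds of 2-fold or more, and the 3 genes closest in difference to each member past 2-fold; other list genes are named after their values were seen. A few list genes that the rule takes or could take are not reported here. With no replicates, errors are the scanner's, and precision is limited by having 1 array a group.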

Additional observations from a re-analysis of the deposited data

How the results depend on the processing

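All alternatives were planned with earlier results of these data known. Of the 5 measured activity genes, only Arc moved by more than the scanner error, to 2.73 with no background correction. The count of 66 genes at least 2-fold higher was 1259 when dim probes were kept, 253 at a threshold of 1.5-fold and 40 at 3-fold. That count was 51 with the stricter filter, 46 with normexp, 47 with no background correction and 45 without the areas. The count of 28 lower genes was 760 when dim probes were kept, 12 with the stricter filter, with normexp and with no background correction, 14 without the areas, 187 at 1.5-fold and 13 at 3-fold. The early regulators' median of 2.10 became 1.78 with normexp, 1.75 with no background correction and 1.86 with no filter; the cause was not tested. The other 6 list medians moved by less than the typical scanner error of their genes. Of 416 values of 37 single list genes and Homer1 probes, 26 moved by more than that error and 0 of those 2-fold apart changed sign. Scaling moved the median of all genes by at most 0.03. No paired analysis was possible because each group has 1 array. Signal over background limits Nptx2 and the dim probes.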
